A study of Mus musculus with 16 samples.

Results

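Liver RNA was compared between mice on an intermittent diet (ID) and mice kept on a medium-fat diet (MF). All 4 arrays whose titles give ID and all 4 whose titles give MF were used, 8 of the 16 arrays of the series, with 1 male C57BL/6J mouse per array. From 9 weeks of age until death at 12 months, ID mice alternated weekly between 40% calorie restriction and MF food ad libitum, and their last week was one of free MF feeding. MF mice had the same food, with 25% of its energy as fat, ad libitum throughout, so the diets differed in history and not in the food of the last week. Each mouse was fasted for 4 h, received by gavage either the carboxymethyl cellulose vehicle (mock) or pirinixic acid (Wy in the sample titles, 160 mg/kg), a synthetic agonist of the nuclear receptor PPARα, and was fasted for another 6 h. Each diet held 1 mock and 1 Wy mouse of high body weight (heavy) and 1 mock and 1 Wy mouse of low body weight (light), from animals picked as the heaviest and lightest of their diet. Each combination of diet, treatment and weight class is therefore 1 mouse, weight was no random factor, and no weights are in the labels. The classes are relative to each diet, and the study reports lower weights in ID than in MF mice after the ad libitum week. Mice that share a class are therefore not matched in actual weight, and within a class diet and weight cannot be told apart.

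Weekly restriction followed by refeeding moves the liver between fasting programmes (fatty acid oxidation, ketone and glucose production) and feeding programmes (lipid and sterol synthesis). Long exposure to fat-rich food is known to raise genes of lipid storage under PPARγ, and in obese males to flatten the growth hormone dependent difference between male and female livers. Fatty liver also draws in monocyte-derived macrophages and activates stellate cells, the main source of collagen in the organ. In whole liver, fewer cells of a type and less RNA per cell cannot be told apart.

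The arrays were alike in scale: the median tested gene had a log2 intensity of 7.12 to 7.19 in ID and MF arrays, and pairs of these arrays correlated at 0.971 to 0.995 over 14275 genes. The normalization equalises the distributions of the arrays, so their similar medians do not speak to array quality. The 14 hepatocyte markers averaged 12.62 to 12.73 in ID livers and 12.55 to 12.74 in MF livers. Array codes in the labels were shared by 14 arrays, while both heavy ID arrays carried a second code. In heavy mice diet and array code therefore cannot be told apart, and comparisons that bear on this are given beside the heavy-mouse results. The number of arrays limits the precision throughout. The median standard error was 0.09 (log2) for ID minus MF over both weight classes and 0.12 within a class.

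With treatment and weight class as terms, no gene differed between ID and MF livers at an adjusted p under 0.05 (limma, 0 of 14275, 0%). The smallest adjusted p was 0.352, and 1629 genes (11.4%) had an unadjusted p under 0.05, 794 higher and 835 lower in ID. That number was 712 with array code as a term and 735 without the 2 arrays of the second code. With 1 of the 8 arrays left out it ranged from 891 to 2462. The 4 ID arrays did not overlap the 4 MF arrays for 287 genes (2.01%), of which 129 were higher and 158 lower in ID. The difference had 1 direction in all 4 matched comparisons (same treatment and weight class) for 2430 genes (17%). The 24 genes named next were those with the smallest unadjusted p among these 2430, 12 in each direction, so their shared direction comes from the rule, and none passed the test after adjustment (adjusted p = 0.352 for each).

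Among the 12 genes higher in ID, Notum, a secreted enzyme that inactivates Wnt proteins, had the largest difference. Its log2 intensity was 7.65 and 6.89 in heavy ID mice (mock first, then Wy, here and below) and 7.92 and 7.18 in light ID mice, against 6.58 and 6.20 in heavy MF mice and 7.58 and 6.71 in light MF mice. The ID and MF ranges overlapped, since Wy mice of both diets were lower than mock mice, and the fitted difference was 0.64 ± 0.15 (SE). Hirip3, whose product binds histones, differed by 0.59 ± 0.11, but 3 of 4 MF arrays were below the intensity filter, and with such values raised to the filter the difference was 0.23. Zfp830 (5.65 to 5.87 in ID, against 5.08 to 5.50 in MF) and Cyp2d10, a drug-metabolising cytochrome P450 (10.36 to 10.64 against 9.97 to 10.22), had groups that did not overlap. The differences of Med12l, Amigo1, Gjc3, Frat1, Tent4a and Ccdc15 lay between 0.33 and 0.55. Eno3, an enolase of glycolysis, had the smallest difference of the 12, at 0.27 ± 0.07 (7.22 to 7.35 in ID and 6.88 to 7.16 in MF).

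Mirlet7d, the gene of the let-7d precursor, had 6.40 and 6.59 in heavy and 6.61 and 6.90 in light ID mice, against 5.63 and 6.24 in heavy and 6.15 and 6.39 in light MF mice. It averaged 6.62 ± 0.21 in ID and 6.10 ± 0.33 in MF livers (SD, n = 4 each), a difference of 0.52 ± 0.11. The array measures the transcript cluster of the precursor and not the mature miRNA. The let-7 family is known for repressing growth and insulin signalling genes, and its 5′ arm is shown because its seed (bases 2 to 8, in capitals) defines the family (RefSeq, GRCm38.p6, chr13:48536078-48536099, minus strand).
mmu-let-7d-5p: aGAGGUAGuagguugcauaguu

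The 12 genes lower in ID held several metabolic enzymes and transporters. Atp6v0d2, a subunit of the proton pump of lysosomes, had 6.41 and 4.83 in heavy and 5.33 and 4.82 in light ID mice, against 6.99 and 5.96 in heavy and 6.52 and 6.04 in light MF mice. Its difference was -1.03 ± 0.19, and each ID mouse lay below its MF counterpart. Cd36, the fatty acid translocase of the plasma membrane, had 9.98 and 11.05 in heavy and 9.47 and 9.83 in light ID mice, against 11.67 and 12.01 in heavy and 9.57 and 11.19 in light MF mice. The difference was also -1.03 (SE 0.24), but the light mock mice of both diets were close together.

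Gbe1, the branching enzyme of glycogen synthesis, had the smallest p of the 12 (unadjusted p = 0.000102), with 10.60 to 10.97 in ID and 10.86 to 11.31 in MF livers. Mthfd2 of the mitochondrial folate pathway (5.42 to 5.59 against 5.83 to 6.05) and the sulfotransferase Sult1c2 (6.19 to 7.11 against 7.15 to 7.69) did not overlap between the diets. Aldh1b1, a mitochondrial aldehyde dehydrogenase, differed by -0.79 ± 0.16, the water channel Aqp8 by -0.82 ± 0.17 and the trehalose-splitting enzyme Treh by -0.76 ± 0.17. For Tmem45b, Lrrc28, Klf10 and Cryzl2 the differences lay between -1.11 and -0.43.

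**Figure D1:**
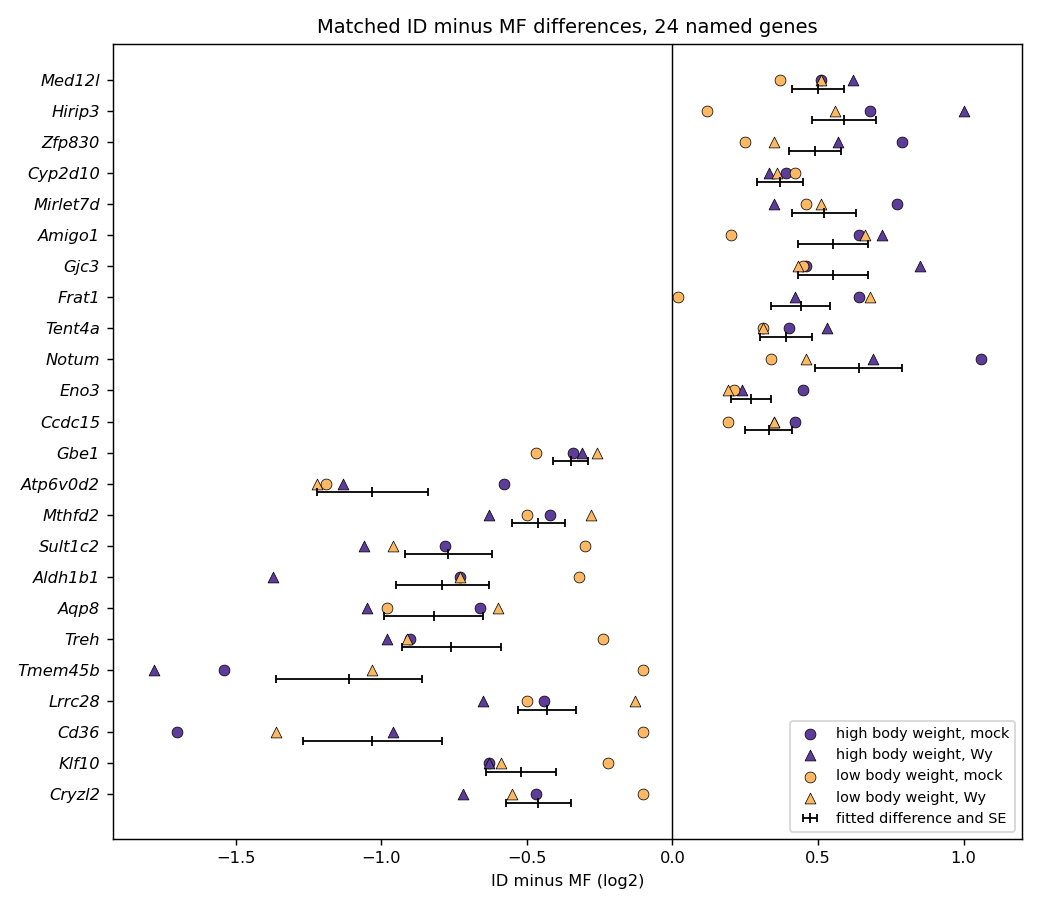
ID minus MF differences (log2, x axis) for the 24 genes with the smallest unadjusted p, 12 higher and 12 lower in ID. Circles are mock and triangles Wy pairs of heavy (purple) or light (orange) mice, and the black marks below them are the fitted difference and its SE. All points of a gene lie on 1 side of 0, as the rule required, with the light mock pair closest to 0 for genes such as Cd36, Tmem45b and Frat1.

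When the diets were compared within each weight class, the called genes were all in heavy mice. There 436 of 14275 genes passed the test, 164 higher in ID (1.15% of the genes tested) and 272 lower (1.91%), with 19 of the rises and 72 of the falls at least 2-fold. In light mice 0 genes passed (0%, smallest adjusted p = 1), and 501 genes (3.51%) had an unadjusted p under 0.05. The count in heavy mice depended on single arrays: it was 47 without the heavy mock MF mouse, 206 without the heavy Wy MF mouse, 109 without the heavy mock ID mouse and 270 without the heavy Wy ID mouse, and 124 when only the 8 arrays were fitted. Of 40 of the heavy-mouse genes named below, 6 stayed called in all settings run (Cidea, Plin3, Anxa2, Timp1, Cxcl1 and Igfbp2). Without each of those arrays in turn, in the same order, 6, 22, 12 and 24 of the 40 stayed called, and none turned its direction.

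The difference between the weight classes was itself tested, and 4 genes passed (0.028%). Uap1l1, related to an enzyme of amino sugar activation, had 6.43 and 6.32 in heavy and 6.61 and 6.42 in light ID mice, against 7.63 and 7.53 in heavy and 6.47 and 6.49 in light MF mice. The heavy-minus-light difference of ID minus MF was -1.24 ± 0.12 (adjusted p = 0.005). For Zc3h13, a subunit of the complex that methylates adenosines in RNA, ID livers had 6.66 to 7.06, against 8.53 and 8.88 in heavy and 7.04 and 6.84 in light MF livers, and the difference was -1.52 ± 0.17 (adjusted p = 0.0195). Both genes were high in the heavy MF mice alone.

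Anxa2, a calcium-dependent membrane-binding protein, had 7.19 and 7.44 in heavy and 6.98 and 7.11 in light ID mice, against 9.11 and 9.00 in heavy and 7.06 and 7.26 in light MF mice, with a difference of -1.63 ± 0.20 (adjusted p = 0.0231). Slc22a7, the organic anion transporter OAT2, went the other way. It had 8.87 and 7.92 in heavy and 7.98 and 7.46 in light ID mice, against 6.44 and 6.64 in heavy and 8.99 and 8.26 in light MF mice. ID minus MF was 1.86 ± 0.25 in heavy and -0.91 ± 0.25 in light mice, and the difference was 2.76 ± 0.36 (adjusted p = 0.0297). With only the 8 arrays fitted none of the 4 passed. With single arrays left out, Uap1l1 passed each time, Zc3h13 was lost without the heavy mock, the light mock or the light Wy ID mouse, and Anxa2 and Slc22a7 were lost without any of these, the heavy mock MF mouse or either light MF mouse. For all other genes named below, the difference between the weight classes did not pass the test, so that a call in heavy mice does not show a response particular to them.

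**Figure D2:**
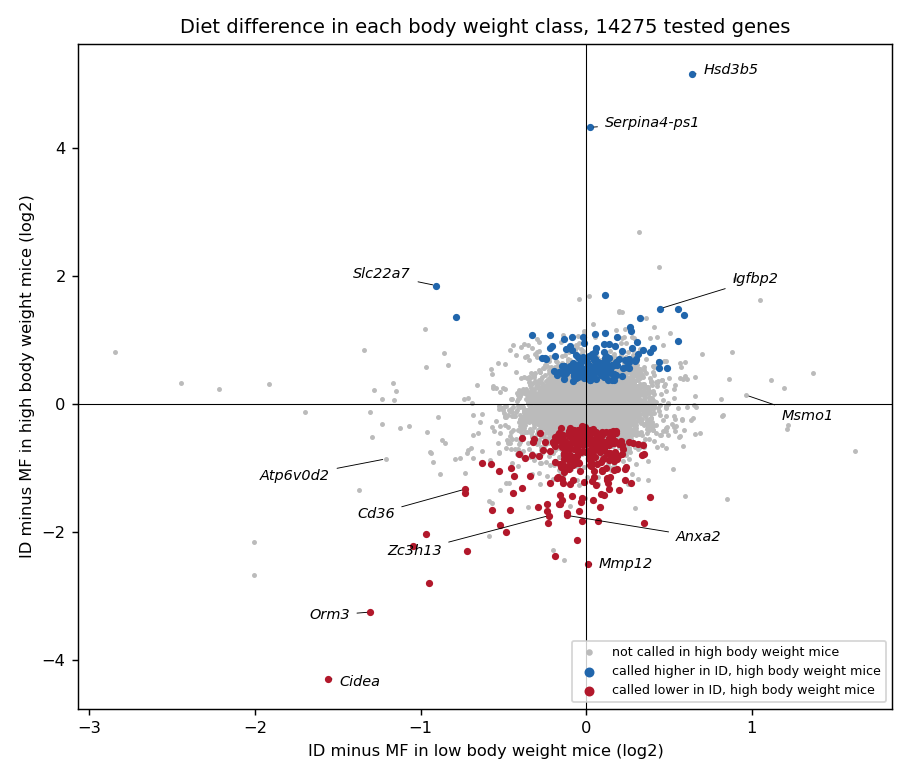
ID minus MF (log2) in low body weight mice (x axis) and in high body weight mice (y axis), 1 point per tested gene. Blue and red points are the 164 genes called higher and the 272 called lower in heavy ID mice, and most of them lie near 0 on the x axis, while Cidea and Orm3 are below 0 on both axes.

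Levels of the weight classes were also set across the diets. Light ID minus heavy MF, in which all arrays carry 1 code, gave 1073 calls (7.52%, 476 higher and 597 lower in ID), and this comparison shares the heavy MF arrays with the one above. Its count was 586 with only the 8 arrays, 221 without the light Wy ID mouse, 341 without the light mock ID mouse, 259 without the heavy mock MF mouse and 503 without the heavy Wy MF mouse. Heavy ID minus light MF, which crosses the array codes, gave 0 calls (0%, 751 genes at an unadjusted p under 0.05). Heavy ID minus light ID, also across the codes, gave 0 calls (0%, 1105 at an unadjusted p under 0.05), while heavy MF minus light MF gave 577 (4.04%). The count of 577 rested on single mice, since it was 4 without the light mock MF mouse, 96 without the heavy mock MF mouse and 354 without the heavy Wy MF mouse, and 251 with only the 8 arrays. Measured as the root-mean-square difference over genes, the heavy mock ID array lay 0.22 from the light mock MF array and 0.38 from the heavy mock MF array. The same distances for the heavy Wy ID array were 0.24 and 0.31. Heavy ID livers were thus nearer in level to light than to heavy MF livers.

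Several lipid storage genes were lower in heavy ID than in heavy MF mice. Here and below, genes said to rise or fall in heavy mice were higher or lower in ID than in MF. The words do not tell which diet group moved. Of all tested genes, 1.91% were called lower and 1.15% higher in heavy ID mice. These shares stand beside the heavy-mouse counts by list here and below. The lists and their members were chosen with earlier results of these data known. Counts by list therefore describe these arrays and are no test of enrichment. Of 9 tested genes of PPARγ and its known targets in fatty liver, 6 were lower in ID (Pparg, Cd36, Cidea, Mogat1, Plin4 and Aqp7) and none higher, and the list's median difference was -1.39, beside 0.00 over all tested genes. In light mice the median of the list was -0.44 with no calls. Cidea, a protein that enlarges lipid droplets by fusion, had the deepest fall of all called genes: 4.08 and 5.47 in heavy and 3.99 and 4.00 in light ID mice, against 8.51 and 9.62 in heavy and 4.41 and 6.70 in light MF mice. All ID mice were below their MF counterparts, and 3 of 4 ID arrays were below the intensity filter, 1 of them from a heavy mouse. In heavy mice the fitted difference was -4.29 ± 0.55 (adjusted p = 0.00629), and with values below the filter raised to it the difference was -4.17.

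The nuclear receptor gene Pparg fell 1.92-fold (8.44 and 7.87 in heavy ID mice, against 9.48 and 8.72 in heavy MF mice, adjusted p = 0.0333). Mogat1, an enzyme that makes diacylglycerol from monoacylglycerol, had 5.75 and 5.90 in heavy ID and 7.45 and 7.51 in heavy MF mice and was 3.14-fold lower (adjusted p = 0.021). Cd36 was 2.51-fold lower (adjusted p = 0.0241), and Plin4, a coat protein of lipid droplets, was 2.63-fold lower (8.01 and 8.40 against 9.59 and 9.61, adjusted p = 0.0312). Aqp7, a glycerol channel that also marks adipocytes, had 4.01 and 4.69 in heavy ID mice against 5.69 and 6.79 in heavy MF mice (adjusted p = 0.0327). The heavy mock ID value was below the filter, and with it raised to the filter Aqp7 was 3.33-fold lower. Pparg and Aqp7 were not followed through the alternative settings.

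Of 14 tested proteins of the lipid droplet surface, 3 fell (Plin3, Plin4 and Cidea), 2 of them members of the PPARγ list, and the median of the list was -0.20. Plin3, a perilipin of most tissues, had 8.21 and 7.71 in heavy ID mice against 9.25 and 8.96 in heavy MF mice (-1.14 ± 0.14, adjusted p = 0.00629). Cidec, a relative of Cidea that also enlarges lipid droplets, ranged from 6.68 to 11.21 in ID and from 6.64 to 11.71 in MF mice and was higher with Wy in both diets. Its difference in heavy mice was -1.61 ± 0.76 (adjusted p = 0.262). Fgf21, a hormone made by the fasted liver, had 5.55 to 8.16 in ID and 5.58 to 8.06 in MF mice, with a difference over both classes of -0.08 ± 0.26. De novo lipogenesis genes had no calls among 22 (median -0.15), nor had mitochondrial oxidation and ketogenesis apart from its coactivator gene Ppargc1a, the only call among 21 (median 0.07). Ppargc1a was 1.65-fold higher in heavy ID mice (8.87 and 7.86 against 8.07 and 7.21, adjusted p = 0.0285). The 8 adipocyte markers, which include Aqp7, averaged 7.86 and 8.77 in heavy ID and 8.59 and 9.16 in heavy MF livers at their lowest and highest, none was below the filter on all 8 arrays, and their part in the lipid genes was not tested.

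**Figure D3:**
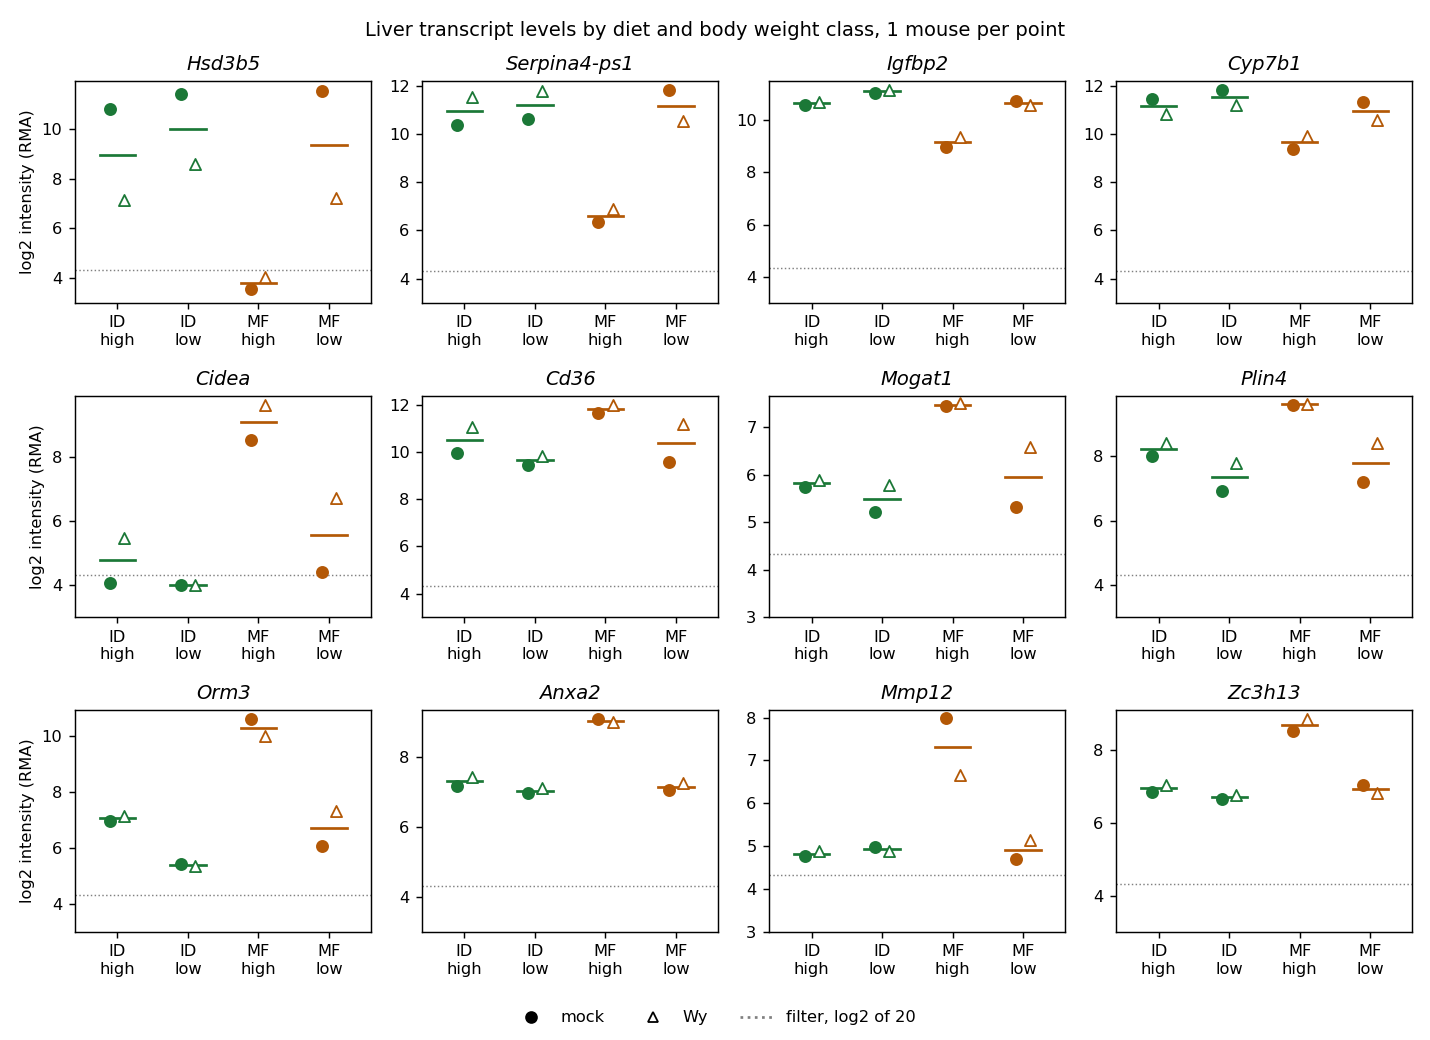
Log2 intensity of 12 genes in each of the 8 livers, by diet and weight class (high, heavy; low, light). Filled circles are mock and open triangles Wy mice, the short line is the mean of a pair, and the dotted line is the intensity filter. For Anxa2, Zc3h13 and Mmp12 the 2 heavy MF mice stand above the other 6, for Igfbp2, Cyp7b1 and Serpina4-ps1 below them.

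Of the genes known to differ between male and female livers, 5 were called in heavy mice. Of 20 tested male-biased genes, 2 rose in heavy ID mice (Hsd3b5 and Cyp7b1) and none fell, with a median of 0.54 (1.15% of all tested genes rose). Of 14 female-biased genes, 3 fell (Cyp2b9, Hao2 and Slc22a27) and none rose, with a median of -0.28 (1.91% of all tested genes fell). Hsd3b5, a steroid reductase of the adult male liver, had 10.79 and 7.13 in heavy and 11.42 and 8.59 in light ID mice, against 3.54 and 4.05 in heavy and 11.53 and 7.20 in light MF mice. The heavy MF mice were the only ones below the intensity filter, so that Hsd3b5 was at least 24.8-fold higher in heavy ID mice (adjusted p = 0.0193). Of the 20 male-biased genes, 19 had a fitted difference above 0, and Slco1a1, an organic anion transporter, had 11.70 and 10.90 in heavy ID mice against 7.50 and 9.70 in heavy MF mice without passing the test (2.70 ± 1.21, adjusted p = 0.234).

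Cyp7b1, an oxysterol hydroxylase of the acidic bile acid pathway, was 2.80-fold higher (11.47 and 10.86 in heavy ID mice against 9.40 and 9.95 in heavy MF mice, adjusted p = 0.0331). Cyp2b9, a cytochrome P450 of female livers, was 4.67-fold lower. It had 9.58 and 9.86 in heavy and 8.47 and 6.45 in light ID mice, against 12.11 and 11.77 in heavy and 8.39 and 8.61 in light MF mice (adjusted p = 0.0227). Hao2, a peroxisomal hydroxyacid oxidase, was 2.40-fold lower with values below the filter raised to it, and the anion transporter Slc22a27 was 2.94-fold lower. For Hao2, 1 of 2 heavy ID arrays was below the filter, and over both classes 3 of 4 ID and 2 of 4 MF arrays were. The pseudogene Serpina4-ps1 had the second largest rise of all, 20.1-fold, with 10.36 and 11.53 in heavy ID mice against 6.33 and 6.90 in heavy MF mice (adjusted p = 0.0286). Light mice had 10.62 and 11.80 in ID and 11.83 and 10.54 in MF, and related serpin genes could share its probes.

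In insulin and growth factor signalling, 4 of 18 tested genes rose in heavy ID mice and 1 fell (Socs3, below), with a median of -0.01. Igfbp2, a circulating binding protein of insulin-like growth factors, had the smallest p of the list. It had 10.61 and 10.70 in heavy and 11.06 and 11.17 in light ID mice, against 8.96 and 9.36 in heavy and 10.73 and 10.60 in light MF mice, 2.82-fold higher in heavy ID mice (1.49 ± 0.16, adjusted p = 0.00307). Igfals, the acid-labile subunit that keeps these factors in the blood, was 2.07-fold higher (9.32 and 8.87 against 8.27 and 7.82). Irs1, the insulin receptor substrate, was 1.71-fold higher and Sesn1, a stress-inducible inhibitor of growth signalling, 1.35-fold higher. Usp2, a deubiquitinase with a daily rhythm, was the only call among 14 clock output genes (1.79-fold higher, adjusted p = 0.0274), and none of 16 core clock genes was called.

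A few acute phase genes were lower in heavy ID than in heavy MF mice. Of 23 tested acute phase and metallothionein genes, 3 fell (Orm2, Orm3 and Socs3), beside 1.91% of all tested genes. All 23 fitted differences were below 0, and the median was -0.40. Orm3, an α1-acid glycoprotein secreted in inflammation, had 6.96 and 7.15 in heavy and 5.43 and 5.37 in light ID mice, against 10.61 and 10.00 in heavy and 6.07 and 7.33 in light MF mice. It was 9.52-fold lower in heavy ID mice (-3.25 ± 0.46, adjusted p = 0.00732). Its neighbour Orm2 had 8.66 and 9.37 in heavy ID mice against 12.00 and 11.63 in heavy MF mice and was 6.96-fold lower (adjusted p = 0.0295), but the copies are similar in sequence and probes may be shared. Socs3, a feedback inhibitor of cytokine signalling, was 2.51-fold lower (6.40 and 7.90 against 8.13 and 8.82, adjusted p = 0.0367).

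The serum amyloid gene Saa2 and the siderophore-binding Lcn2 were not called. Saa2 had 8.40 and 11.62 in heavy and 8.07 and 7.42 in light ID mice, against 12.66 and 12.72 in heavy and 8.24 and 11.26 in light MF mice. The heavy Wy ID mouse was closer to the heavy MF mice than the mock one was, and the difference in heavy mice was -2.68 ± 0.84 (adjusted p = 0.102). Lcn2 had the same pattern, with 9.51 and 12.24 in heavy ID mice and 13.02 and 13.04 in heavy MF mice (adjusted p = 0.187), and for Mt2, a metallothionein, the adjusted p was 0.374.

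Markers of lipid-associated and monocyte-derived macrophages fell for 3 of 15 tested genes in heavy mice (Gpnmb, Ccr2 and Mmp12), with a median of -0.66 and 11 genes at an unadjusted p under 0.05, all lower, beside 10.9% of all tested genes lower at that p. The mean log2 level of the list was 6.19 to 6.24 in heavy and 6.15 to 6.27 in light ID livers, against 6.73 to 7.34 in heavy and 6.13 to 6.28 in light MF livers, and none of its markers was below the filter on all 8 arrays. Mmp12, a macrophage elastase, had 4.76 and 4.88 in heavy and 4.98 and 4.89 in light ID mice, against 7.99 and 6.66 in heavy and 4.70 and 5.14 in light MF mice. It was 5.66-fold lower, with an adjusted p of 0.0471 that was lost in 10 of 14 alternatives (up to 0.267). Gpnmb, a glycoprotein of lipid-laden macrophages, was 5.19-fold lower (4.57 and 4.65 against 7.79 and 6.19, adjusted p = 0.0406), and Ccr2, the receptor that brings monocytes into tissue, was 2.20-fold lower (4.99 and 4.53 against 6.06 and 5.74, adjusted p = 0.00728). The receptor Trem2 had 6.02 and 6.21 in heavy ID mice against 7.23 and 6.57 in heavy MF mice (adjusted p = 0.056).

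Other immune lists moved less or were not called. None of 12 resident Kupffer cell markers was called (median 0.16 in heavy and 0.17 in light mice), and Adgre1, the F4/80 antigen of mouse macrophages, had 7.85 to 8.69 in ID and 7.81 to 8.34 in MF livers. Its general macrophage companion Cd68 (8.18 to 8.71 against 8.20 to 9.18) and the chemokines Ccl2 and Ccl3 were not called either. Of 19 liver chemokines 3 fell: Cxcl1, which attracts neutrophils, was 4.38-fold lower (7.37 and 7.86 in heavy ID mice, against 9.78 and 9.71 in heavy MF mice, adjusted p = 0.00629), and Ccl5 and Ccl6 were 2.48-fold and 2.24-fold lower. The 6 MHC class II genes had a median of -0.83 in heavy mice with no calls, and the mean level of that list was 7.88 and 8.88 in heavy ID livers at its lowest and highest, and 8.88 and 9.34 in heavy MF livers.

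Extracellular matrix and fibrosis genes fell for 6 of 27 tested in heavy mice (Col1a1, Thbs1, Timp1, Mmp2, Loxl1 and Loxl2). Of these, Timp1 alone stayed called in all settings run, and Thbs1 and Loxl1 were not followed through them. All 27 differences were below 0, 19 of them at an unadjusted p under 0.05 (10.9% of all tested genes were lower at that p), and the median was -0.45. Col1a1, a chain of type I collagen, had 6.20 and 6.34 in heavy and 6.07 and 6.02 in light ID mice, against 6.96 and 6.86 in heavy and 6.12 and 6.23 in light MF mice (-0.64 ± 0.09, adjusted p = 0.00866). Timp1, an inhibitor of matrix proteases, was below the filter on both heavy ID arrays (4.26 and 4.30) and had 5.68 and 5.24 in heavy MF mice. It was at least 2.20-fold lower in ID (adjusted p = 0.00614). Mmp2, a gelatinase of mesenchymal cells, was 1.93-fold lower, and Loxl2, a collagen cross-linking enzyme, was 1.63-fold lower, a call that was lost with the mean of its transcript clusters (-0.27). Stellate cell markers had no calls among 15, with mean levels of 7.69 to 7.71 in heavy ID and 7.79 to 7.90 in heavy MF livers, and their part in the matrix genes was not tested.

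**Figure D4:**
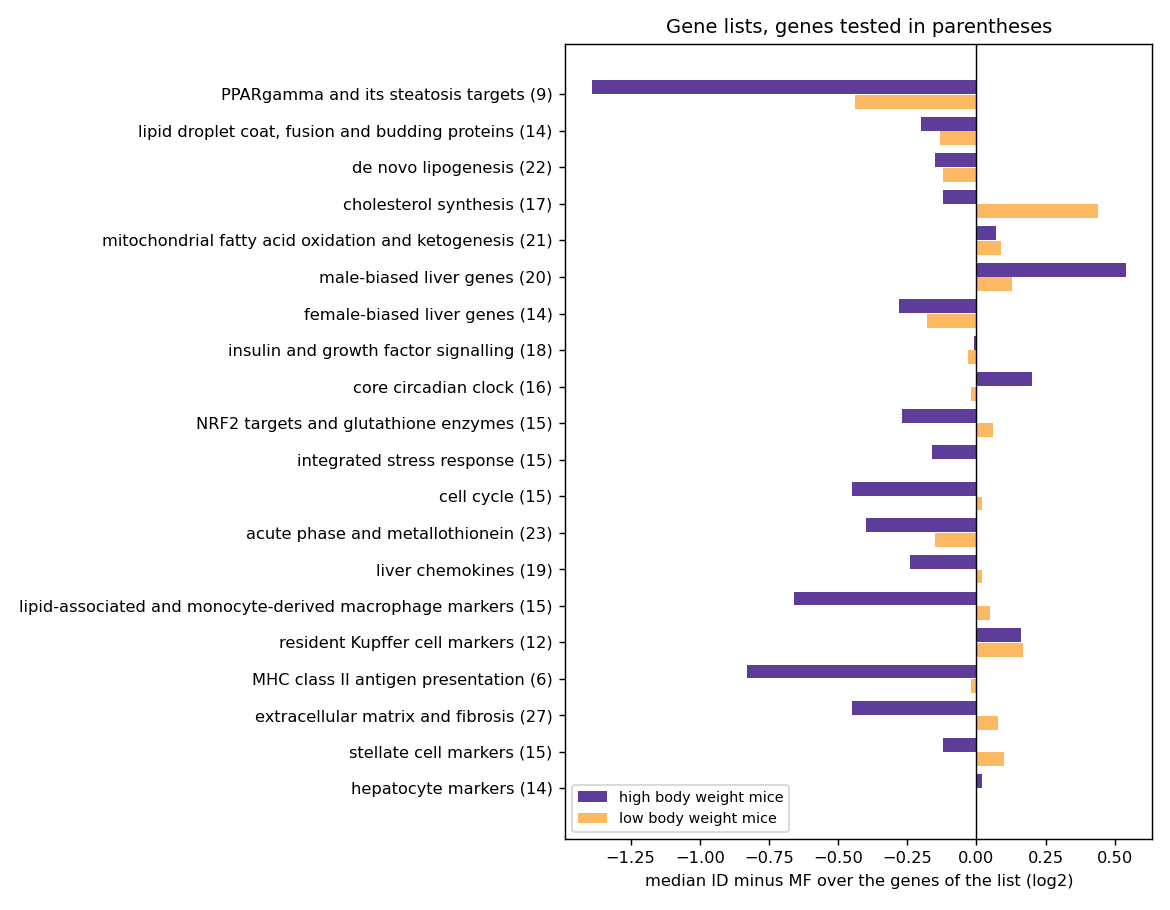
Median ID minus MF (log2, x axis) over the tested genes of 20 gene lists, with the number of genes in parentheses, in heavy (purple) and light (orange) mice. The PPARγ list reaches -1.39 in heavy mice, the macrophage list -0.66, the male-biased list 0.54, and cholesterol synthesis is the list with the highest median in light mice, 0.44.

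Of 16 annexins and S100 proteins, 3 fell in heavy ID mice, where 1.91% of all tested genes were called lower and 1.15% higher. Anxa2 was 3.34-fold lower (-1.74 ± 0.14, adjusted p = 0.000358), Anxa5, which binds exposed phosphatidylserine, was 1.99-fold lower (11.31 and 11.02 against 12.27 and 12.04), and S100a11, an annexin partner, was 2.76-fold lower (8.59 and 8.93 against 10.50 and 9.95). In the integrated stress response, 2 of 15 genes fell: Chac1, which degrades glutathione (3.64-fold lower, 6.98 and 7.27 against 8.84 and 9.13), and the transcription factor Atf3 (2.18-fold lower). Of 15 genes of the cell cycle list 2 fell, the cyclin Ccna2 (1.79-fold) and Tubb2a (4.94-fold, 6.40 and 8.58 against 9.29 and 10.30). Tubb2a encodes a tubulin of the cytoskeleton and is not specific to dividing cells. Of 13 p53-linked genes Btg2, an antiproliferative factor, fell 2.94-fold while Sesn1 rose. In complement and coagulation, C8b of the membrane attack complex was 2.22-fold higher (11.78 and 11.43 against 10.38 and 10.52) and F7, a clotting factor, 1.45-fold higher, out of 23 genes.

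To give the same genes without the second array code, light ID mice were set against heavy MF mice. There Cidea differed by -5.07 (adjusted p = 0.00103), Cd36 by -2.20 (0.00148), Orm3 by -4.90 (0.000724), Anxa2 by -2.01 (0.000117), Col1a1 by -0.87 (0.00103), Gpnmb by -2.45 (0.0225), Igfbp2 by 1.95 (0.000201) and Hsd3b5 by 6.21 (0.00471), all adjusted p-values of limma. Both light ID arrays for Cidea and both heavy MF arrays for Hsd3b5 were below the intensity filter. The sizes given for Cidea and Hsd3b5 rest on those values and were not taken against the filter. By list, 6 of 9 PPARγ genes, 11 of 23 acute phase genes, 7 of 15 macrophage markers and 11 of 27 matrix genes were lower in light ID mice (4.18% of all tested genes were), and 5 of 20 male-biased genes were higher (3.33%). Some lists without calls in heavy mice had calls here. Of 16 core clock genes 4 were higher, and of 12 resident Kupffer cell markers 3 were higher and 1 lower. All 4 genes of the study's inflammation and fibrosis panel (Saa2, Lcn2, Mt2 and Timp1) were lower. Of these only Timp1 was called in heavy mice. This comparison crosses weight classes and shares the heavy MF arrays with the comparison of heavy mice, so it is no independent repeat of it. Heavy ID minus light MF had 0 calls among all 14275 genes, so it could give none in these lists. Its medians were 0.11 for the PPARγ list, 0.15 for the acute phase list and 0.03 for the macrophage list. They were 0.06 for the matrix list and -0.02 for the male-biased list.

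Upstream sequence of 4 falling genes is shown because 2 neighbouring members of 1 family, Orm2 and Orm3, fell together, Anxa2 had the smallest p of the annexins, and Cd36 belongs to the list of PPARγ targets. The 250 bases before each RefSeq gene start were searched on both strands for TGANTCA, a motif of the AP-1 factors, AGGTCA, the single element of many nuclear receptors, and TTCNNNGAA, a motif of STAT factors. These motifs were chosen after the values were seen. More genes were looked up singly than are shown. Aqp7 (AGGTCA) and Socs3 (TTCNNNGAA) had a match that is not printed here, and Cyp2b9, Hsd3b5 and Cyp7b1 yielded no match to TTCNNNGAA. TGANTCA was found before 21 of 214 genes called lower in heavy ID mice that had a sequence (9.81%), 5 of 133 called higher (3.76%), 669 of 11287 tested genes (5.93%) and in 6.75% of all 32851 windows. AGGTCA was found before 17.3% of genes called lower, 18.8% of those called higher and 14.1% of tested genes, and TTCNNNGAA before 9.35%, 5.26% and 7.30%. A match is a run of letters and not a measured binding site, and no test was made. The 60 bases around the match are given 5′ to 3′ on the gene's strand (GRCm38.p6), with the match in capitals, for Orm2 (chr4:63362215-63362274, plus), Orm3 (chr4:63355923-63355982, plus) and Anxa2 (chr9:69453561-69453620, plus), and for Cd36 (chr5:17836087-17836146, minus), where AGGTCA lies on the opposite strand and reads TGACCT.
Orm2: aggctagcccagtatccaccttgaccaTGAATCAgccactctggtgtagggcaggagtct
Orm3: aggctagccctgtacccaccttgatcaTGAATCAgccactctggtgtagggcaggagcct
Anxa2: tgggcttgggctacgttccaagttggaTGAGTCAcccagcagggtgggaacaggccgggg
Cd36: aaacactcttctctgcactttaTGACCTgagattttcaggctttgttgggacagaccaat

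In light mice, where no gene was called, the 4 genes with the smallest p were Msmo1, P2rx6, Atp6v0d2 and Ifi208. Msmo1, a demethylase of cholesterol synthesis, had 11.44 and 11.14 in light and 10.39 and 10.31 in heavy ID mice, against 10.60 and 10.07 in light and 10.43 and 9.98 in heavy MF mice. Light ID mice were the highest of the 8, and the difference in light mice was 0.96 ± 0.16 (unadjusted p = 7.94e-05, adjusted p = 1). The 17 tested cholesterol synthesis genes had a median of 0.44 in light mice, 14 of them above 0 and 10 at an unadjusted p under 0.05, all higher (1.68% of all tested genes were higher at that p), with a largest value for Sqle, the squalene epoxidase (9.87 and 9.53 in light ID mice against 8.82 and 8.16 in light MF mice, 1.21 ± 0.27, adjusted p = 1). In heavy mice the median was -0.12. Ifi208, an interferon-inducible gene, differed by 0.82 ± 0.18, P2rx6, a subunit of ATP-gated channels, by -0.45 ± 0.09, and Atp6v0d2 by -1.21 ± 0.26.

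The diet difference was also compared between treatments. No gene passed the test of Wy minus mock in ID minus MF (0 of 14275, 0%, 448 at an unadjusted p under 0.05). With mock and Wy mice fitted apart, ID minus MF gave 0 calls in each (661 and 1083 genes at an unadjusted p under 0.05). The smallest p-values belonged to Cdcp1, Flacc1, Socs2 and Hnrnpa0. Cdcp1, a transmembrane protein, had 5.96 and 5.47 in heavy and light Wy ID mice, against 6.73 and 6.45 in Wy MF mice, while in mock mice the values were 5.85 and 5.60 in ID and 5.92 and 5.27 in MF. Socs2, a growth hormone target, had 10.36 and 10.13 in heavy and light Wy ID mice, against 8.32 and 9.49 in Wy MF mice, and 8.20 and 9.28 in mock ID mice, against 8.94 and 10.21 in mock MF mice.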

How the data were processed

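Liver RNA of single mice was hybridised to Affymetrix Mouse Gene 1.1 ST arrays. The deposited values are log2 intensities per transcript cluster, which the authors, per the submitters' processing notes, computed by robust multichip averaging (RMA). The RMA version was not given in the sources used here. RMA equalises the distributions of the arrays, so a shift shared by most genes is not visible. Of 35556 clusters, 21218 had 1 gene in the platform annotation. They gave 18820 genes, the brightest cluster standing for a gene with several. The authors' filter was kept, an intensity above 20 (log2 4.32) on at least 5 of 16 arrays, which left 14275 genes and left out 4545.

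Differences were fitted with limma 3.58.1 (R 4.3.3; lmFit, eBayes) on all 16 arrays, with diet, treatment and weight class as terms (10 residual degrees of freedom), or with diet by weight class or diet by treatment cells (7). P-values were two-sided and adjusted over all tested genes (Benjamini-Hochberg), and adjusted p-values under 0.05 were taken as calls. Folds against a group wholly below the filter were taken against the filter. The code was tested on simulated data. The samples are separate mice, and mock and Wy mice of 1 diet were paired on body weight. Over all tested genes, heavy minus light correlated between treatments at 0.0839 in ID and 0.564 in MF. This value is no measure of the pairing alone, since weight class and pair cannot be told apart in it.

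Named genes were, for ID minus MF, 12 in each direction with the smallest p and 1 direction in all 4 matched comparisons (none being called), and, within classes and for differences between classes or treatments, the 6 largest called changes or the 4 smallest p-values, skipping predicted genes. The 12 genes of the study's panels and up to 4 members of each list described were added. Pparg, Aqp7, Thbs1, Loxl1, Slco1a1 and Sqle were added after their values were seen. All members, lists (58, with 727 tested genes) and motifs were chosen with earlier results of these data known. Alternatives covered normalization, filter, clusters per gene, model, blocks, array code and single arrays.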

Additional observations from a re-analysis of the deposited data

Results flagged for a closer look

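The diet difference of 4 genes differed between the weight classes by the interaction test: heavy minus light was 2.76 for Slc22a7, -1.63 for Anxa2, -1.52 for Zc3h13 and -1.24 for Uap1l1 (log2, limma). In 7 of 164 groups of 4 arrays (82 genes in each diet, 4.27%) 1 array stood apart by Dixon's criterion at the 95% level. Among replicates chance flags about 1 in 20 groups. The 4 arrays here differ in treatment and weight class, and the genes were picked from these data, so that rate does not apply. The statistic, the gap to the nearest array over the range, follows each gene. For Adgre1 the light Wy ID mouse was high in ID (8.69, others 7.85 to 7.92, 0.917) and the heavy mock MF mouse was high in MF (8.34, others 7.81 to 7.84, 0.943). Cidea was high in the heavy Wy ID mouse (5.47, others 3.99 to 4.08, 0.939). Cidec was low in the light mock MF mouse (6.64, others 11.05 to 11.71, 0.870). Eno3 was low in the heavy Wy ID mouse (7.22, others 7.33 to 7.35, 0.846), Ifi208 was high in the light Wy ID mouse (5.72, others 5.64 to 5.65, 0.875), and Lrrc28 was low in the light mock ID mouse (9.03, others 9.52 to 9.58, 0.891). The causes were not tested.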

How the results depend on the processing

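For ID minus MF the count of called genes was 0 in all alternatives but 2: with treatment by weight cells as a block it was 1 (Atp6v0d2, -1.03, adjusted p = 0.0376), and with arrays left out in turn it ranged from 0 to 1 (Dact1, without the light mock MF mouse). In heavy mice the 436 calls became 124 with only the 8 ID and MF arrays, 47 to 415 with 1 array left out, and 416 to 560 under the other settings, those with quantile normalization, clusters averaged and the stricter filter being chosen after seeing the data. In light mice the count was 0 to 2 with 1 array left out (Cyp2b9 and Mid1 without the light mock ID mouse). The 4 calls of the difference between classes became 0 with only the 8 arrays and 1 to 35 with 1 array left out (35 without the heavy Wy ID mouse, 1, Uap1l1, without the light Wy ID mouse), and the Wy minus mock difference had 0 to 1 (Mid1 without the heavy Wy ID mouse, Cpne5 without the light Wy MF mouse). Alternatives added after seeing the data left out arrays in the comparisons across classes: light ID minus heavy MF gave 586 calls with only the 8 arrays and 221 to 503 with 1 left out, heavy MF minus light MF gave 251 and 4 to 418 (4 without the light mock MF mouse), heavy ID minus light MF 0 to 1 and heavy ID minus light ID 0 to 2. The causes were not tested.

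Of 1485 single-gene values under alternatives, 1321 kept direction and side of the threshold. All 10 that turned direction were panel genes with small differences over both classes. Fgf21 became 0.04 without the heavy mock MF mouse, 0.10 without the heavy mock ID mouse, 0.16 without the light Wy ID mouse and 0.13 in mock arrays only (-0.35 to 0.16 with 1 array left out). Ccl2 became 0.12 without the heavy mock MF mouse and 0.02 in Wy arrays only. Adgre1 became -0.06 without the light Wy ID mouse and -0.20 in mock arrays only (-0.06 to 0.33 with 1 array left out). Cd68 became 0.01 with array code as a term and 0.01 without the arrays of the second code. Leaving an array out leaves its cell with 1 mouse, which is assumed to vary like the others. Matched mice as a random block (consensus correlation 0.0741) changed no call for ID minus MF, and could not be fitted with diet by weight cells. Timp1, Hsd3b5 and Hirip3 were below the filter in both heavy mice of 1 diet and have only bounds there, as had Flacc1, for which no value is given.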
